A study of Homo sapiens with 12 samples.

Results

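The nuclear genes for the subunits of the respiratory chain and ATP synthase were followed in HL60 cells, a human acute myeloid leukemia cell line, by RNA-Seq. Members were taken from the deposited count table by gene symbol, leaving out genes of the mitochondrial genome. The symbols covered the NDUFA, NDUFB, NDUFC, NDUFS and NDUFV families, SDHA to SDHD, the UQCR genes and CYC1, the COX5 to COX8 families and the ATP5F1, ATP5M and ATP5P families. This rule found 81 of 59251 genes, of which 36 encode subunits of complex I, 4 of complex II, 9 of complex III, 15 of complex IV and 17 of complex V. NDUFA4 is named as a complex I gene but was counted in complex IV, where the protein is found. Non-treated cells were compared with 3 kinds of treated cells, each after 48 h: ATRA (all-trans retinoic acid, 1 µM), CDK4/6i (palbociclib, which inhibits CDK4 and CDK6, 1 µM) and CDK4/6i+ATRA (the pair of drugs). Each group had 3 libraries, 12 in all, labelled as biological replicates of 1 cell line. The study describes its enrichment scores for these groups as coming from separate experiments, while the labels do not say which libraries share one, so the p-values measure the spread between these libraries.

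The respiratory chain sits in the inner mitochondrial membrane. Complexes I and II pass electrons from NADH and succinate to ubiquinone, complex III passes them on to cytochrome c, complex IV reduces oxygen, and complex V uses the proton gradient to make ATP. Complexes I, III, IV and V are built from subunits of both the nuclear and the mitochondrial genome, whereas complex II is encoded wholly in the nucleus, so for most of the chain the products of separate genomes have to be assembled together. Myeloid precursors such as HL60 cells respond to ATRA by granulocytic differentiation, and palbociclib arrests the cell cycle in G1.

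Total counts ranged from 12230923 to 18679544 per library, with the smallest totals in the CDK4/6i+ATRA group, and 3 counts corresponded to 0.156 to 0.275 CPM, the number of counts scaled to a common library total. Levels are given after TMM normalization, which corrects for a few abundant genes taking a large share of a library. Floors cover counting error only, since no molecular identifiers are described. A gene was called when edgeR's quasi-likelihood test gave a Benjamini-Hochberg adjusted p-value under 0.05 over the 13318 genes that passed the expression filter. Of the 8 myeloid precursor markers, MPO, CTSG, CD33, SPI1 and MYB passed the filter, and the MPO level was 6517 ± 168 CPM without treatment and 28.0 ± 5.15 CPM after CDK4/6i+ATRA (SD, n = 3). With CDK4/6i+ATRA, MPO, CTSG and MYB had log2 fold changes of -7.86, -4.42 and -4.92, SPI1 rose and CD33 was not called (0.09), and the part of these shifts in the results was not tested. ELANE, AZU1 and PRTN3 had 0 counts in every library, and these genes are also listed on an alternate contig of the genome. The erythroid markers HBA1 and HBB and the markers MS4A1 and EPCAM were at 0, COL1A1 reached at most 4 counts, and the lymphoid marker CD3E ranged between group means of 0.813 and 2.99 CPM.

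Of the 81 members, 77 had at least 1 count and 74 passed the expression filter (34, 4, 9, 10 and 17 in complexes I to V). The others were mostly isoforms known from heart, skeletal muscle or testis. COX6A2 and COX7B2 had 0 counts in every library, which allows a level of up to the floor of 3 counts, while COX6B2 reached at most 2 and COX7A1 at most 5 counts in a library. COX8C was listed at 0, and its exons overlap UNC79. Its row also spans 1 alternate contig, as do the rows of SDHB (28420 counts in all) and COX5B (48172). For each of these COX isoforms the widely expressed partner (COX6A1, COX6B1, COX7A2, COX7B and COX8A) carried the counts. NDUFA3 had 2 counts in all and NDUFA6 had 0, although both encode subunits of complex I in every tissue. Their rows also span 9 and 4 alternate contigs, so these values were not read as absent expression.

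With CDK4/6i+ATRA, most members of complexes I, II, III and V fell against non-treated cells, and the median of complex IV lay near that of all genes. Of the 74 tested members, 47 fell and 17 rose, beside 40.7% of all tested genes called lower and 41.0% called higher. In complex I, 22 of 34 members fell and 6 rose, with a median log2 fold change of -0.29 and a range from -1.26 (NDUFB10) to 0.87 (NDUFB1). Complex II had 3 of 4 members lower and 1 higher (median -0.37), complex III 7 of 9 lower and 2 higher (median -0.29), and complex V 11 of 17 lower and 3 higher (median -0.32). In complex IV 4 of 10 members fell and 5 rose, and the median was 0.06. The median over all tested genes was 0.02, and that of complex IV relative to it ran from -0.00886 without the third CDK4/6i+ATRA library to 0.12 without the first. In the bulk libraries, fewer cells of a type and less RNA per cell cannot be told apart. By library size alone, without TMM, the median of all genes moved to -0.25 and the members split into 56 lower and 9 higher, while relative to all genes the medians of complexes I to V were -0.31, -0.39, -0.31, 0.04 and -0.34 with and without TMM.

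ATRA by itself lowered members of all 5 complexes. Of the 74 members, 54 fell and 6 rose, beside 35.5% and 32.1% of all tested genes called lower and higher. The medians ran from -0.33 in complex III and -0.29 in complex V through -0.23 in complex I and -0.20 in complex II to -0.12 in complex IV, beside -0.03 over all tested genes. None of the 17 complex V members was called higher and 14 fell. One limit is ATP5MG, which was called higher under 5 alternatives, among them the DESeq2 test (0.096). With CDK4/6i by itself 28 members were higher, 10 lower and 36 not called, beside 28.3% and 27.9% of all tested genes. Its medians lay between 0.00 in complex II and 0.10 in complex IV, beside 0.02 over all tested genes. Relative to all genes that of complex II (-0.0155) ran from -0.0478 without the third non-treated library to 0.0186 without the third CDK4/6i library and was also positive without the first non-treated library, and that of complex IV (0.0825) was 0.0492 with NDUFA4 in complex I. The 6 called members of complex V were all higher. The count of 10 lower members dropped to 6 without the first non-treated library.

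**Figure D1:**
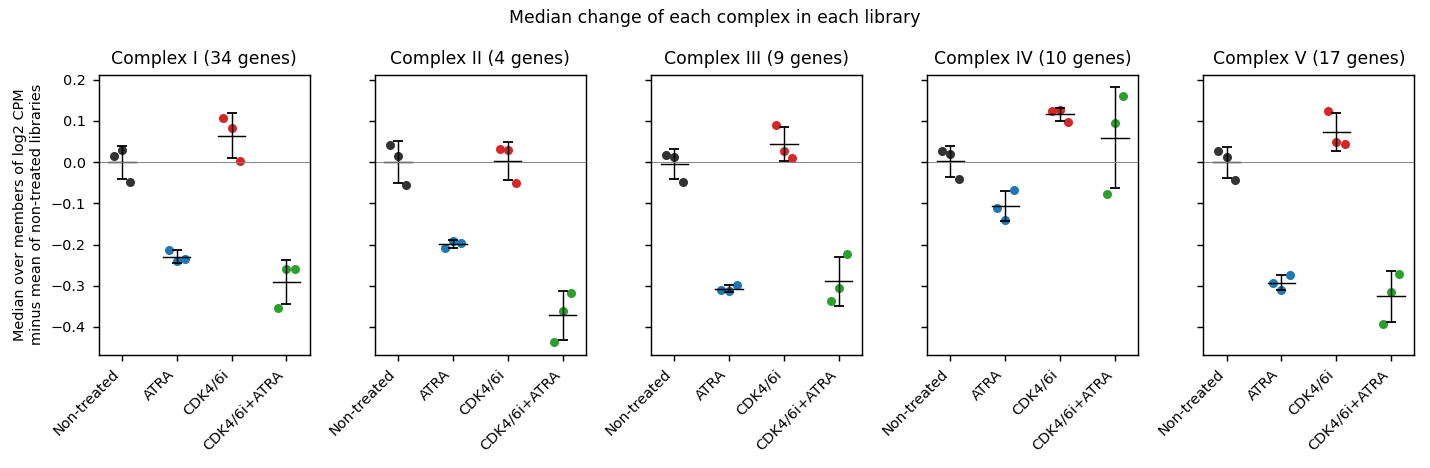
Each point is 1 library and gives the median over the tested members of a complex of log2 CPM minus the mean of the non-treated libraries, with bars for the mean and SD of 3 libraries. With ATRA all 3 libraries lie under those of non-treated cells in every complex. With CDK4/6i+ATRA they do so in complexes I, II, III and V, whereas those of complex IV spread from -0.08 to 0.16 around the non-treated ones.

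The drop was seen in each library, not in a group mean alone. The median of complex I members relative to non-treated cells was -0.21, -0.24 and -0.24 in the 3 ATRA libraries, and -0.35, -0.26 and -0.26 in the 3 CDK4/6i+ATRA libraries. For complex V the CDK4/6i+ATRA libraries had -0.39, -0.31 and -0.27. Those of complex IV had -0.08, 0.09 and 0.16, and the first of them was the lowest CDK4/6i+ATRA library in all 5 complexes. Levels summed over the 74 members were 12190.3 ± 316 CPM in non-treated cells, 10212 ± 99.5 CPM with ATRA, 12697 ± 347 CPM with CDK4/6i and 10215 ± 490 CPM with the pair (SD, n = 3 each).

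Adding ATRA to CDK4/6i, the comparison of CDK4/6i+ATRA with CDK4/6i, lowered 50 members and raised 14, beside 39.5% and 39.1% of all tested genes. It lowered 7 of 9 members of complex III (median -0.49) and 13 of 17 of complex V (median -0.38), against 4 of 10 of complex IV (median -0.08). Relative to all genes the complex IV median was -0.0843, and it ran from -0.134 without the third CDK4/6i+ATRA library to -0.00748 without the first. Adding CDK4/6i to ATRA gave 28 members lower (37.8%) and 24 higher (32.4%), near the 32.8% and 36.9% of all tested genes. The median over the members was 0.00, and the medians ran from -0.17 in complex II and -0.12 in complex III to 0.05 in complex IV. By library size alone these splits became 65 lower and 6 higher, and 54 lower and 7 higher, and without a filter on low counts 8 members were higher against CDK4/6i. The range of single members was wider than the medians show, from -0.89 for ATP5MC1 to 0.90 for ATP5F1E, whose mean level was below 5 CPM.

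**Figure D2:**
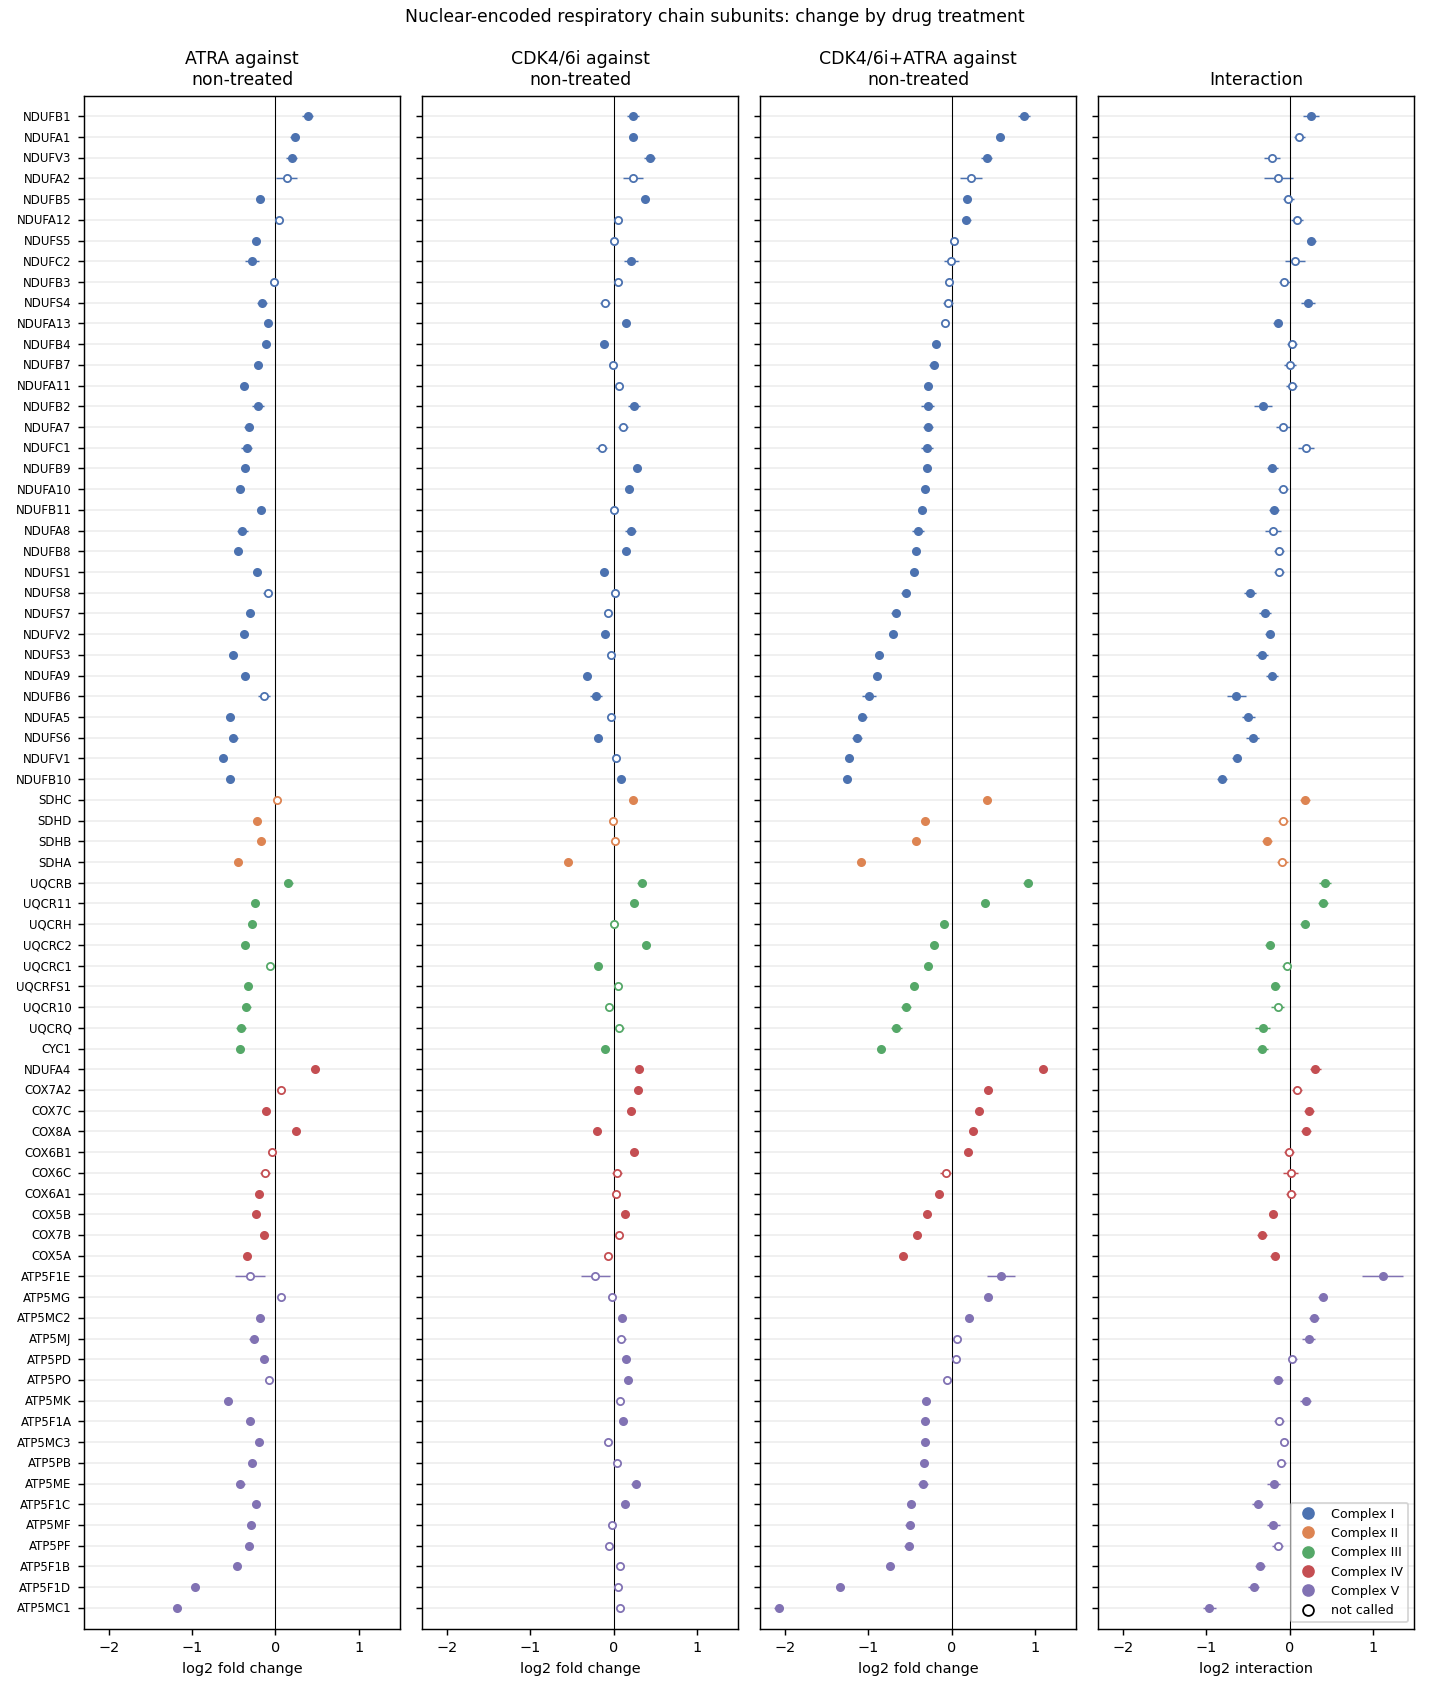
Each row is a tested member (73 of the 74 are drawn), grouped by complex and ordered by the change with CDK4/6i+ATRA; points give the log2 fold change with its standard error, filled where edgeR called it, and the last panel gives the interaction of the drugs. Negative changes outnumber positive ones with ATRA in every complex, and with CDK4/6i+ATRA in complexes I, II, III and V. ATP5MC1 lies farthest to the left at -2.08.

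Complex II is the smallest complex and its 4 genes did not move together. SDHA encodes the flavoprotein that oxidizes succinate, SDHB the iron-sulfur subunit, and SDHC and SDHD the membrane anchors. SDHA (chr5:218320-268746, hg38) had 165, 175 and 168 CPM in the 3 non-treated libraries, 121, 121 and 129.9 CPM with ATRA, 114, 116 and 118 CPM with CDK4/6i, and 81.1, 81.4 and 77.4 CPM with CDK4/6i+ATRA. Every treated library was below every non-treated one, and the CDK4/6i+ATRA libraries were below all others. SDHA was also the member with the lowest log2 fold change with CDK4/6i, at -0.55 (SE 0.0403, adjusted p = 1.3e-16 in edgeR), beside -0.45 (SE 0.0402) with ATRA and -1.08 (SE 0.0443, adjusted p = 1.7e-27) with CDK4/6i+ATRA. The last value lay close to the sum of the single-drug values, with an interaction of -0.09 (SE 0.0608, adjusted p = 0.24 in edgeR). Pseudogene copies of SDHA held counts equal to 7.15% of those of SDHA, the largest such share among the tested members, so a small number of its reads may have been split.

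SDHB (chr1:17018722-17054032) had 169, 164 and 155 CPM in non-treated libraries, 144, 147 and 141 CPM with ATRA, 168, 164 and 162 CPM with CDK4/6i, and 116, 122 and 125 CPM with CDK4/6i+ATRA. It did not follow SDHA with CDK4/6i, where its log2 fold change was 0.02 (SE 0.0392, adjusted p = 0.72 in edgeR), and it fell by 0.43 with CDK4/6i+ATRA. SDHD (chr11:112086873-112095794) had log2 fold changes of -0.22, -0.01 and -0.31 with ATRA, CDK4/6i and the pair, the second not called, and group means of 176 ± 4.82, 151 ± 3.64, 174 ± 8.73 and 141 ± 6.42 CPM (SD, n = 3) in the non-treated, ATRA, CDK4/6i and CDK4/6i+ATRA groups. SDHC (chr1:161314381-161375340) went the other way. It had 118, 113 and 106 CPM in non-treated libraries, 117, 112 and 113 CPM with ATRA, 137, 127 and 132 CPM with CDK4/6i, and 149.7, 149.6 and 156 CPM with CDK4/6i+ATRA. The CDK4/6i+ATRA libraries were above all 9 others, and the log2 fold change against non-treated cells was 0.43 (SE 0.0433, adjusted p = 9.2e-13 in edgeR).

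**Figure D3:**
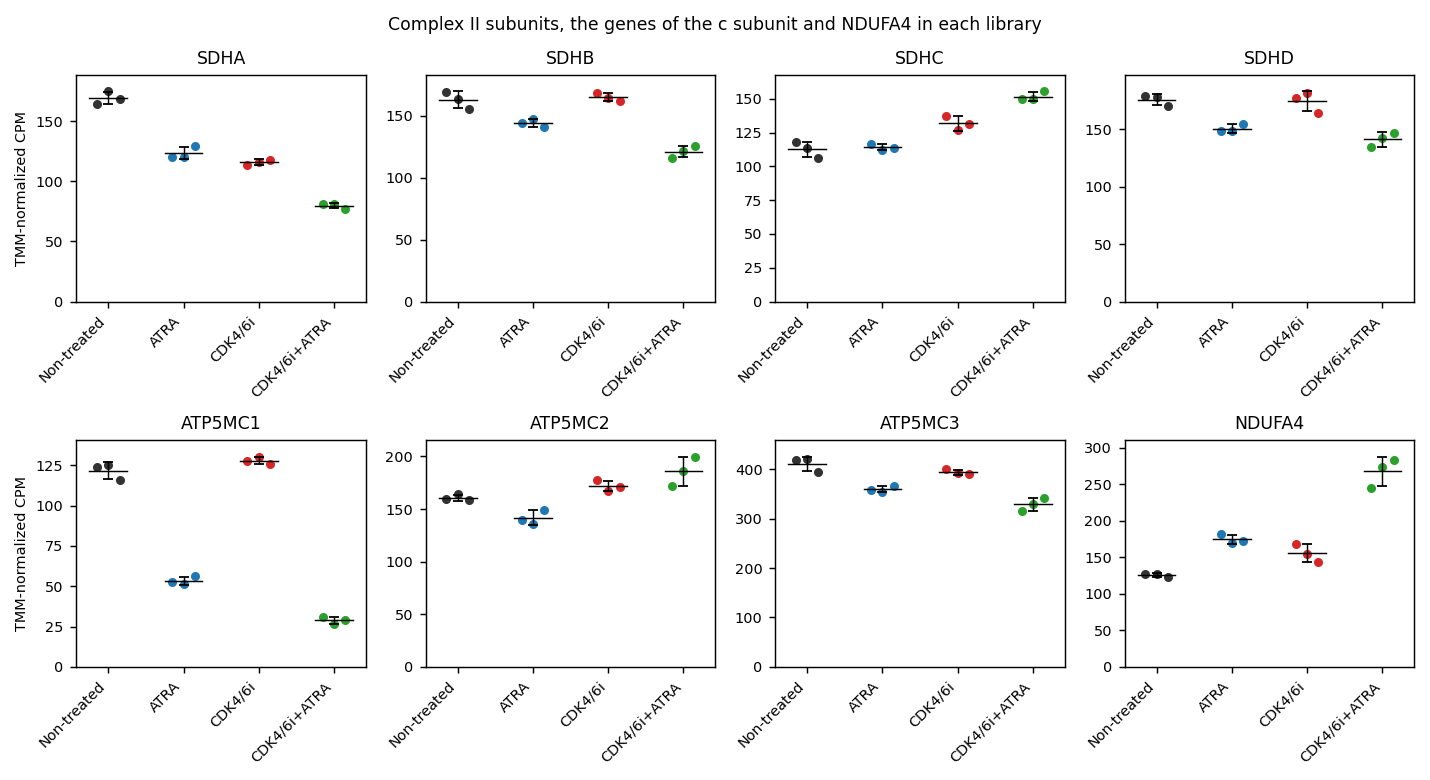
TMM-normalized CPM of each library (points) with the mean and SD of 3 libraries per group (bars) for the 4 genes of complex II, the 3 genes of the ATP synthase c subunit and NDUFA4. SDHA and ATP5MC1 are lowest with CDK4/6i+ATRA while SDHC and NDUFA4 are highest there, and ATP5MC2 and ATP5MC3 move by far less than ATP5MC1.

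The promoters of these genes are shown because respiratory chain genes are known for binding sites of NRF1 and of ETS factors such as GABP just upstream of the start. The sequences are from RefSeq on GRCh38.p14 and run up to the base before the start in the direction of transcription, and capitals mark matches on either strand to the NRF1 core GCGCANGC, the ETS motif CCGGAAG or the YY1 motif ATGGCGG. SDHA is chr5:218120-218319 on the plus strand, SDHB chr1:17054033-17054232 on the minus strand and SDHD chr11:112086673-112086872 on the plus strand. SDHC had no entry in the promoter table.
SDHA: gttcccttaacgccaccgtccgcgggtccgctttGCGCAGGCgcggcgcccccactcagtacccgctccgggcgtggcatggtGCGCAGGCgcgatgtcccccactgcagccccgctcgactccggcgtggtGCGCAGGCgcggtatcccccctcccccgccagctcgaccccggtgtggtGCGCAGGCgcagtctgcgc
SDHB: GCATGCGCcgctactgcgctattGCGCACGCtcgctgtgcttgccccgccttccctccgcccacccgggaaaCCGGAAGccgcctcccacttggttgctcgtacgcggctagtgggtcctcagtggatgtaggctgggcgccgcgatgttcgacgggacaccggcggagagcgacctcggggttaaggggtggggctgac
SDHD: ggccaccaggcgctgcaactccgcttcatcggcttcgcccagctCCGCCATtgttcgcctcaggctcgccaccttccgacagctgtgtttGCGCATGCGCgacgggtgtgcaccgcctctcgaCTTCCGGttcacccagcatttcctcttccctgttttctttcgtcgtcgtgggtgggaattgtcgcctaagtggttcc
The SDHA stretch holds 4 copies of the NRF1 core, all on the plus strand. SDHB holds 2 NRF1 cores and 1 ETS match, and SDHD holds 2 NRF1 cores that overlap on opposite strands, 1 ETS match and 1 YY1 match. The NRF1 core stood before SDHA, which fell with each single drug, and before SDHB and SDHD, which were not called with CDK4/6i.

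Promoters were found for 66 of the 81 members. In the 250 bases before the start, the NRF1 core was present in 42.4% of them, compared with 19.5% of the promoters of 9788 tested genes and 10.9% of all 27305 promoters in the table. The ETS motif was present in 25.8%, against 16.6% and 8.82%, and the YY1 motif in 7.58%, against 4.32% and 2.83%. The E-box CACGTG was present in 9.09%, against 9.14% and 6.49%, and the motif TCAAGGTCA of estrogen-related receptors in none of the 66, against 0.204% and 0.319%. By complex, the NRF1 core was present in 10 of 31 promoters of complex I, 3 of 3 of complex II, 4 of 7 of complex III, 5 of 12 of complex IV and 6 of 13 of complex V. Among the members that fell with CDK4/6i+ATRA it was present in 18 of 41 promoters, and among those that rose in 4 of 12, so both directions were found with and without the motif.

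ATP5MC1, ATP5MC2 and ATP5MC3 encode the same mature c subunit of the proton-driven ring of complex V and differ in the leader that directs the protein into mitochondria. Of these, ATP5MC1 alone changed more than 2-fold. ATP5MC1 (chr17:48892787-48895871) had 124, 125 and 116 CPM in non-treated libraries, 52.4, 51.7 and 56.1 CPM with ATRA, 128, 130.3 and 126 CPM with CDK4/6i, and 31.1, 26.6 and 28.8 CPM with CDK4/6i+ATRA. The ATRA libraries were all below the non-treated and CDK4/6i libraries, and the CDK4/6i+ATRA libraries were lower still. The level with CDK4/6i+ATRA was 0.237 of that in non-treated cells, the lowest among the members, with a log2 fold change of -2.08 (SE 0.057, adjusted p = 6.7e-35 in edgeR). ATRA by itself gave -1.19 (SE 0.0482) and CDK4/6i 0.07 (SE 0.044, adjusted p = 0.16), and the interaction was -0.97 (SE 0.0765, adjusted p = 2.2e-15), a fall larger than the sum of the single-drug values.

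The other genes of the c subunit changed less. ATP5MC3 (chr2:175176258-175181710) had 419, 420.2 and 395 CPM in the libraries without treatment, 359, 354 and 366 CPM with ATRA, 399.8, 393 and 390.2 CPM with CDK4/6i, and 315, 331 and 341 CPM with CDK4/6i+ATRA. It fell by 0.32 on the log2 scale with CDK4/6i+ATRA (SE 0.038), and its interaction was -0.07 (adjusted p = 0.3 in edgeR). ATP5MC2 (chr12:53665170-53681423) had group means of 161 ± 2.89, 142 ± 6.94, 172 ± 5.10 and 186 ± 14.0 CPM (SD, n = 3) in the same order. It fell by 0.18 on the log2 scale with ATRA (SE 0.0432). Its log2 fold change on treatment with the pair of drugs was 0.21 (SE 0.0438, adjusted p = 2.6e-05 in edgeR) and turned to -0.06 by library size alone and to 0.10, not called, without a filter on low counts. The CDK4/6i+ATRA libraries of ATP5MC2 overlapped those with CDK4/6i.

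The promoters of ATP5MC1 (chr17:48892637-48892786, plus strand) and ATP5MC2 (chr12:53676084-53676233, minus strand, before a start that lies inside the span of the counted gene) are shown to set the gene that fell with CDK4/6i+ATRA beside the one that rose. The rise of ATP5MC2 was not called by library size alone or without a filter on low counts. Source, direction and capitals are as for the complex II genes, and ATP5MC3 had no entry in the promoter table.
ATP5MC1: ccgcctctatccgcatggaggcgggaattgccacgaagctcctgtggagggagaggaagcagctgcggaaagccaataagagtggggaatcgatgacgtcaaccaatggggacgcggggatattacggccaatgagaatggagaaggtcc
ATP5MC2: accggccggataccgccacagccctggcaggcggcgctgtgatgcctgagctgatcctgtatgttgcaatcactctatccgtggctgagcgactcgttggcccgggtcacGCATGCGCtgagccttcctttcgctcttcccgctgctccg
The ATP5MC1 stretch held none of the motifs searched, and the ATP5MC2 stretch held 1 NRF1 core.

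Of the 5 genes ATP5F1A to ATP5F1E of complex V, 4 fell and 1 rose with CDK4/6i+ATRA (median -0.49), beside 40.7% and 41.0% of all tested genes. ATP5F1B, the catalytic beta subunit, had 1133, 1101 and 1080.4 CPM in non-treated libraries, 788, 789 and 828 CPM with ATRA, 1205, 1142 and 1146 CPM with CDK4/6i, and 616, 663 and 701 CPM with CDK4/6i+ATRA. The CDK4/6i+ATRA libraries lay below all others, and the log2 fold change was -0.74 (SE 0.043, adjusted p = 2.6e-21 in edgeR). ATP5F1A, the alpha subunit, had a smaller value of -0.32 (SE 0.0426), which was like that of -0.30 with ATRA alone. ATP5F1D, the delta subunit of the central stalk, fell by 0.96 with ATRA and by 1.34 with CDK4/6i+ATRA, next to ATP5MC1 in size. ATP5MG, subunit g of the membrane part, had 215, 209 and 211 CPM without treatment and 270.5, 296 and 298 CPM with CDK4/6i+ATRA, and was above all 9 other libraries. Its log2 fold change of 0.44 (SE 0.0388) stood beside 0.06 with ATRA and -0.02 with CDK4/6i, neither of them called. The value with ATRA was called under 5 alternatives, at up to 0.114 when only the groups compared were fitted. ATP5F1E, the epsilon subunit, had 800 counts over the 12 libraries, and 40.8% of its exon bases overlapped other genes, so its value of 0.59 was taken as uncertain.

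The N module is the part of complex I that takes electrons from NADH. NDUFV1, which binds NADH and the flavin, had 215, 205 and 204 CPM in non-treated libraries, 135, 137 and 132 CPM with ATRA, 216, 209 and 214 CPM with CDK4/6i, and 83.0, 90.4 and 92.1 CPM with CDK4/6i+ATRA. It fell by 1.23 with CDK4/6i+ATRA (SE 0.0428, adjusted p = 1.7e-30 in edgeR) and by 0.63 with ATRA, the lowest change with ATRA in complex I. The groups with and without ATRA did not overlap. The iron-sulfur subunits NDUFV2 and NDUFS1 of the same module fell by 0.71 and 0.46 with CDK4/6i+ATRA. NDUFV3, an accessory subunit of this module, had the highest change with CDK4/6i of any member (0.44, SE 0.0675) and 0.42 with CDK4/6i+ATRA, which was 0.15 and not called by library size alone. Over the 9 tested members of the N module, 5 fell and 2 rose with CDK4/6i+ATRA (median -0.28), beside 40.7% and 41.0% of all tested genes.

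The Q module holds the site where ubiquinone is reduced. Values are given for 3 of its 5 members, which do not stand for the module as a whole. NDUFS3 had group means of 107 ± 3.69, 74.8 ± 1.92, 105 ± 3.24 and 58.2 ± 5.74 CPM (SD, n = 3) in the non-treated, ATRA, CDK4/6i and CDK4/6i+ATRA groups, and NDUFS7 had 81.1 ± 4.06, 65.8 ± 3.59, 77.2 ± 0.857 and 51.0 ± 2.61 CPM. NDUFS8 was not called with either drug alone (log2 fold changes of -0.10 and 0.02) and fell by 0.55 with CDK4/6i+ATRA (SE 0.0549, adjusted p = 7.8e-13 in edgeR). Its CDK4/6i+ATRA libraries, at 56.3, 62.3 and 68.4 CPM, lay below all others, which ranged from 82.4 to 96.8 CPM.

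Among the 20 tested members of the membrane arm, 13 fell and 3 rose with CDK4/6i+ATRA (median -0.28), beside 40.7% and 41.0% of all tested genes, and this arm held both extremes of the complex. NDUFB10 (chr16:1959538-1961975), an accessory subunit, had 143, 146 and 143 CPM in non-treated libraries, 101, 102 and 93.4 CPM with ATRA, 157, 156 and 148 CPM with CDK4/6i, and 56.7, 63.3 and 60.0 CPM with CDK4/6i+ATRA. The ATRA libraries did not overlap the non-treated ones and the CDK4/6i+ATRA libraries were lower again, with a log2 fold change of -1.26 (SE 0.0482, adjusted p = 9.8e-29 in edgeR). NDUFB6 had 26.3, 26.8 and 26.3 CPM in non-treated libraries and 24.5, 24.2 and 23.4 CPM with ATRA, and it reached 12.1, 13.1 and 14.6 CPM with CDK4/6i+ATRA. Its change with ATRA was not called (-0.14, adjusted p = 0.09 in edgeR), that with CDK4/6i was called lower (-0.21, adjusted p = 0.013 in edgeR), and the interaction was -0.64 (SE 0.117). NDUFB1 rose in every treated group, from 27.8, 27.8 and 24.2 CPM in non-treated libraries to 34.4, 35.9 and 33.8 CPM with ATRA, 33.8, 29.4 and 30.1 CPM with CDK4/6i and 47.3, 47.4 and 50.9 CPM after the pair of drugs. The rise with CDK4/6i lost its call without the third non-treated library (0.17) or without the first CDK4/6i library (0.16). NDUFA1 and NDUFA12 were the other members of this arm or the N module whose CDK4/6i+ATRA libraries lay above all 9 others.

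In complex III, CYC1, the cytochrome c1 subunit, had 143, 146 and 139 CPM in non-treated libraries, 106, 108 and 104 CPM with ATRA, 135, 132 and 133 CPM with CDK4/6i, and 74.4, 78.9 and 83.3 CPM with CDK4/6i+ATRA. The CDK4/6i+ATRA libraries were below all others, with a log2 fold change of -0.85 (SE 0.0446, adjusted p = 4.4e-23 in edgeR). UQCRFS1, the Rieske iron-sulfur protein, fell by 0.33 with ATRA and by 0.45 with CDK4/6i+ATRA, and its CDK4/6i+ATRA libraries overlapped those with ATRA. UQCRB, a small subunit near the ubiquinone site, had 93.8, 97.5 and 86.9 CPM in non-treated libraries and 161, 170.4 and 193 CPM with CDK4/6i+ATRA, above all 9 other libraries, and its log2 fold change was 0.92 (SE 0.0511, adjusted p = 5.7e-22 in edgeR). UQCR11, another small subunit, had opposite called changes with the single drugs, at -0.24 with ATRA and 0.25 with CDK4/6i, and 0.41 (SE 0.0447) with CDK4/6i+ATRA.

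In complex IV the rise of NDUFA4 was the largest of any member. NDUFA4 (chr7:10931943-10940153) had 127, 127 and 123 CPM in non-treated libraries, 182, 170.1 and 172 CPM with ATRA, 169, 154 and 144 CPM with CDK4/6i, and 246, 274 and 284 CPM with CDK4/6i+ATRA. No library of a treated group overlapped the non-treated ones, and the CDK4/6i+ATRA libraries were above all others, at 2.13 times the non-treated mean (log2 fold change 1.10, SE 0.047, adjusted p = 1.3e-26 in edgeR). Counted with complex I instead, as its name has it, NDUFA4 left complex IV with a median of -0.09 relative to all genes in place of 0.04. COX5A, a subunit on the matrix side, went down from 343, 343 and 317 CPM in non-treated libraries to 209, 226 and 233 CPM with CDK4/6i+ATRA, with a log2 fold change of -0.58 (SE 0.0405), and COX7B, a small membrane subunit, had -0.41 (SE 0.0438). COX5B went from 268 ± 7.38 to 218 ± 7.53 CPM (SD, n = 3), a log2 fold change of -0.30. COX6A1 had -0.15 (SE 0.0461, adjusted p = 0.0032 in edgeR), which was not called without the first CDK4/6i+ATRA library (-0.10). COX7A2 rose by 0.44 (SE 0.0432), while the rises of COX8A (0.25) and COX6B1 (0.19) turned to -0.01 and -0.07 by library size alone, and that of COX6B1 was not called without a filter (0.09).

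Libraries of the CDK4/6i+ATRA group were below all 9 others for 27 of the 74 members and above them for 10, beside 25.7% and 28.3% of all tested genes. The 27 were 12 members of complex I, 3 of complex II, 3 of complex III, 2 of complex IV and 7 of complex V. The interaction, the CDK4/6i+ATRA change minus the sum of the single-drug changes on the log2 scale, was called negative for 29 members and positive for 16, beside 27.0% and 24.5% of all tested genes. By library size alone, which moved the median interaction of all genes to -0.34, the split was 58 and 1. Negative values were called for 14 of 34 members of complex I, 1 of 4 of complex II, 4 of 9 of complex III, 3 of 10 of complex IV and 7 of 17 of complex V, with ATP5MC1 (-0.97), NDUFB10 (-0.81) and NDUFB6 (-0.64) the lowest among members with a mean of at least 5 CPM. The highest at that level were UQCRB (0.42), UQCR11 (0.40) and ATP5MG (0.40), and ATP5F1E, below it and uncertain, had 1.12 (SE 0.248).

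The mitochondrial genes for subunits of the same complexes were set beside the nuclear ones. All 13 of them rose with CDK4/6i+ATRA (log2 fold changes from 0.96 for ND3 to 1.85 for COX1), 12 rose with ATRA (median 0.40) and 3 with CDK4/6i, and none fell in any comparison. Of all tested genes 41.0%, 32.1% and 28.3% were called higher in these comparisons, so the 3 with CDK4/6i were a smaller share than that of all genes. Summed CPM of the 7 mitochondrial genes of complex I was 6280.2, 6015 and 8786 in non-treated libraries, 9068, 11517 and 8185 with ATRA, 8405, 8272 and 7228 with CDK4/6i, and 14361, 19465 and 19865 with CDK4/6i+ATRA. The CDK4/6i+ATRA libraries did not overlap the others, but libraries of 1 group differed by more than for the nuclear genes. The 34 nuclear members of complex I summed to 3607, 3619.8 and 3446 CPM in non-treated libraries and to 2727, 2861 and 2924 CPM with CDK4/6i+ATRA. The ratio of mitochondrial to nuclear summed CPM over all 13 and 74 genes was 1.47 ± 0.359 without treatment, 2.43 ± 0.453 with ATRA, 1.66 ± 0.0962 with CDK4/6i and 4.83 ± 0.649 after the pair of drugs (SD, n = 3). Leaving the mitochondrial genes out of the normalization cost none of the named members its call.

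**Figure D4:**
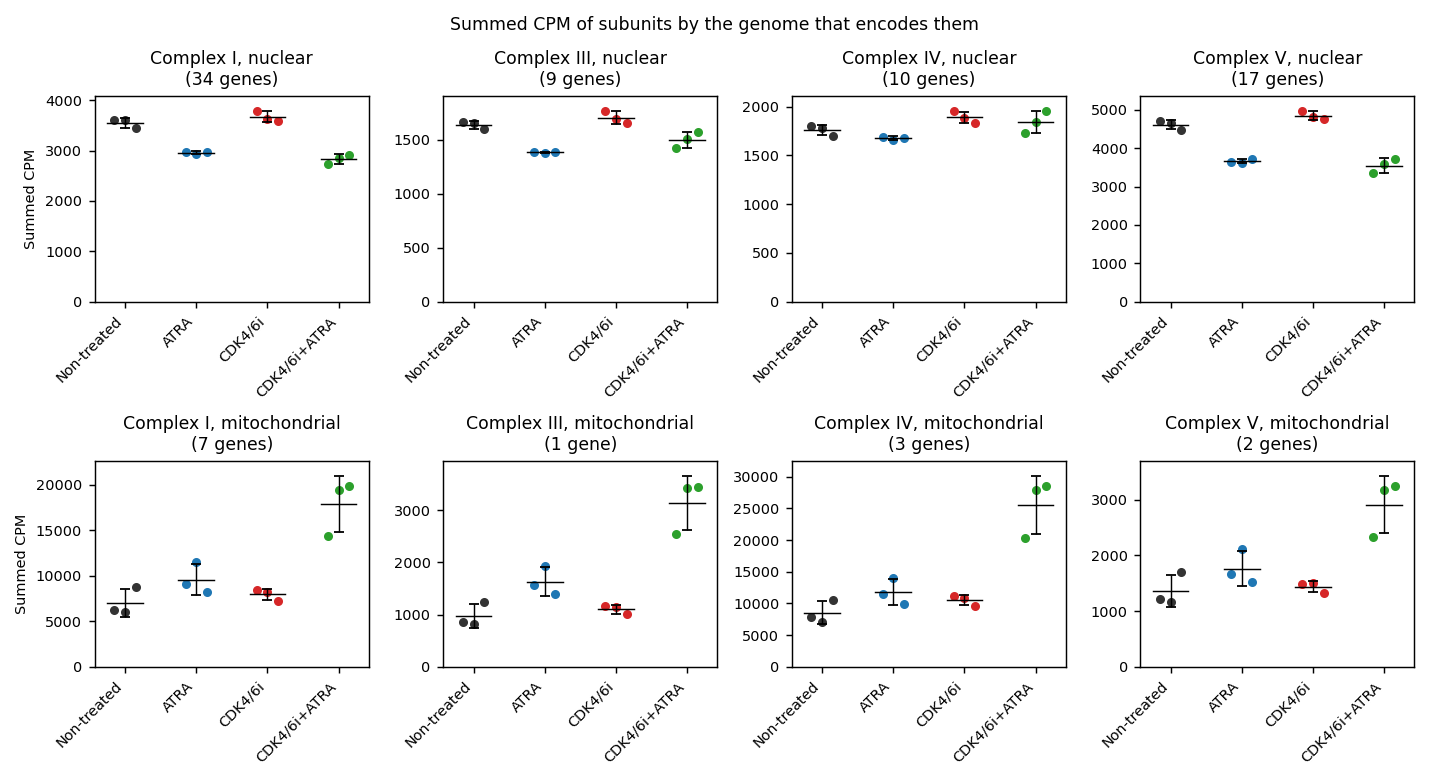
Summed CPM per library (points) with the mean and SD of 3 libraries per group (bars), for the nuclear members (top) and the mitochondrial genes (bottom) of complexes I, III, IV and V. With CDK4/6i+ATRA the mitochondrial sums are above those of all other groups in each complex. The nuclear sums of complexes I, III and V are below those of non-treated and CDK4/6i-treated cells.

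Genes that serve the same complexes were read from lists of their own, beside 40.7% of all tested genes called lower and 41.0% called higher with CDK4/6i+ATRA. Of the 18 tested assembly factors of complex I, 14 fell and 3 rose with CDK4/6i+ATRA, with a median of -0.98, beside -0.29 for the subunits they assemble. FOXRED1 had the lowest value at -2.43 (SE 0.13), and NDUFAF3, NDUFAF4 and NDUFAF6 had -1.53, -1.68 and -1.71. For complex III 4 of 7 tested assembly factors fell and none rose (median -1.51), among them BCS1L, which inserts the Rieske protein (-1.90), and UQCC2 (-2.22). Of the complex IV assembly factors 10 of 22 fell and 4 rose (median -0.29), with COA7 at -2.14 and SURF1 at 0.74. In complex II assembly, 1 of 4 fell (SDHAF3, -1.67) and 2 rose, and in complex V assembly 2 of 5 fell (ATPAF1, -1.43, and TMEM70, -0.84) and 1 rose. The shares lower among the complex IV and complex V factors lay near that of all tested genes.

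The mobile carriers and the enzymes that feed the chain also had more members lower than higher, again beside 40.7% of all tested genes lower and 41.0% higher. CYCS, cytochrome c itself, went from 623 ± 23.3 to 267 ± 20.8 CPM (SD, n = 3) under the pair of drugs, a log2 fold change of -1.22 (SE 0.0432). Together with the genes of coenzyme Q synthesis, 9 of 12 fell and 1 rose (median -0.71), including COQ8A at -2.31 and PDSS1 at -2.42. Of 13 citric acid cycle genes 10 fell and 2 rose (median -0.41), and fumarase, FH, which acts on the product of complex II, went from 171 ± 2.93 CPM to 42.1 ± 1.73 CPM (SD, n = 3). Subunits and isoforms that the symbol rule leaves out gave 3 lower and 2 higher of 5 tested, with NDUFAB1 at -1.12 and COX4I1 at 0.28.

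Regulators of mitochondrial gene expression fell in 9 of 11 tested cases and rose in 1 with CDK4/6i+ATRA (median -1.05), beside 40.7% and 41.0% of all tested genes lower and higher. TFAM, which packages and transcribes mitochondrial DNA, had 159 ± 3.63 CPM in non-treated cells, 116 ± 4.94 CPM with ATRA, 113 ± 1.16 CPM with CDK4/6i and 76.7 ± 3.19 CPM after the pair of drugs (SD, n = 3). POLRMT, the mitochondrial RNA polymerase, fell by 1.18, while the mitochondrial transcripts listed above rose. NRF1, the factor of the NRF1 core, fell by 1.58 with CDK4/6i and by 1.03 with CDK4/6i+ATRA, and was not called with ATRA (-0.03). PPARGC1A had at most 1 count in a library. ESRRA rose by 0.52 with CDK4/6i+ATRA.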

How the data were processed

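RNA-Seq was performed on 12 libraries of HL60 cells, 3 per group, prepared with a directional kit. Per the labels and the methods, the authors trimmed reads with Trimmomatic 0.33, aligned them to hg38 with STAR 2.7.11a with RefSeq gene models, and the deposited values are raw counts per gene, not normalized. The paper names RSEM as the counter, whereas the layout of the table is that of featureCounts, and whether strand was used in counting is not given in the sources used here. Columns were matched to samples by their labels.

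Counts were filtered with filterByExpr on the 4 groups, normalized with TMM and tested with the quasi-likelihood F test of edgeR 4.0.16 (R 4.3.3) on a model of the 4 groups fitted to the whole table (13318 genes, 8 residual degrees of freedom, common biological coefficient of variation 3.7%). For the 6 contrasts, Benjamini-Hochberg adjustment ran over all tested genes and the threshold was 0.05. The test was also run on simulated data. The members and gene lists were chosen with earlier results of these data known. Members are named if they are an SDH or ATP5MC gene, a COX paralogue pair, a core subunit, untested, or an extreme of a complex or contrast at a mean of at least 5 CPM. Of these, 1 member is counted in the totals but its own values are not reported here. ATP5F1D, ATP5F1E, NDUFA1, NDUFA12 and genes of the other lists were named after their values were seen. Exons of the tested members named by the rule overlapped other genes over at most 8.49% of their bases. Motifs were counted on both strands of RefSeq promoters (GRCh38.p14).

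Alternatives covered the normalization (DESeq2 size factors or library size alone), the filter (a minimum of 10 counts per library, or none), the test (DESeq2 1.42.0), a replicate block, fits of the compared groups only, each library left out, and NDUFA4 placed in complex I. Leaving out the genes of the mitochondrial genome was added after seeing the data. Depth was 12230923 to 18679544 counts per library. Pairs of libraries in a group had 1.86 to 6.81 as chi-square divided by its degrees of freedom, so they differed beyond sampling noise. Plots used python 3.11.15 and matplotlib 3.10.9.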

Additional observations from a re-analysis of the deposited data

Results flagged for a closer look

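For 23 of the 32 named and tested members, the effect of ATRA differed between cells with and without CDK4/6i, by the edgeR interaction term at an adjusted p-value under 0.05. Of all tested genes 27.0% had a negative and 24.5% a positive called value, and of all 74 tested members 29 and 16. The count of 23 is raised by the choice of names, since ATP5MC1, NDUFB10, NDUFB6, UQCRB, UQCR11 and ATP5MG were named as extremes of this same term, 4 of them also by another part of the rule. The term was negative for ATP5MC1 (-0.97), NDUFB10 (-0.81), NDUFB6 (-0.64), NDUFV1 (-0.64), NDUFS8 (-0.47), ATP5F1B (-0.36), COX7B (-0.34), NDUFS3 (-0.34), CYC1 (-0.33), NDUFS7 (-0.29), SDHB (-0.27), NDUFV2 (-0.24), COX5B (-0.20), COX5A (-0.18) and UQCRFS1 (-0.17). It was positive for UQCRB (0.42), UQCR11 (0.40), ATP5MG (0.40), NDUFA4 (0.31), ATP5MC2 (0.29), NDUFB1 (0.25), COX8A (0.20) and SDHC (0.18). Within complex II SDHB and SDHC had opposite signs, as ATP5MC1 and ATP5MC2 had among the genes of the c subunit.

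Of the 23 calls, that of NDUFB1 was lost without any of 7 libraries (0.21 to 0.24), that of SDHC without the first non-treated (0.14) or the second CDK4/6i library (0.15), and that of UQCRFS1 without the first CDK4/6i library (-0.15) or the first CDK4/6i+ATRA library (-0.13), and the other 20 held. By library size alone the 8 positive values were lost or changed sign, while the 15 negative ones were kept. That scaling moved the median interaction of all genes from -0.02 to -0.34, so this split does not show which calls are firmer. Without a filter the calls of COX8A, NDUFB1 and SDHC were lost, and that of NDUFB1 also with the DESeq2 test.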

How the results depend on the processing

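Over 32 named members in up to 6 contrasts, direction and call were the same in 187 of 192 cases with DESeq2 size factors, 184 with the DESeq2 test, 190 with at least 10 counts in every library, 191 without mitochondrial genes, 169 without a filter and 155 of 160 with only the groups compared. The cause of the changes was not tested. Library size alone moved the median of all genes in the comparison of CDK4/6i+ATRA with non-treated cells from 0.02 to -0.25 and left 152 of 192 the same. It gave 9 members higher in that comparison, 6 higher against CDK4/6i, 7 higher and 54 lower against ATRA, and 1 positive and 58 negative interactions. Reversed against non-treated cells were ATP5MC2 (-0.0563), COX6B1 (-0.0717) and COX8A (-0.0122), against CDK4/6i ATP5MC2 (-0.17), COX7A2 (-0.13), SDHC (-0.0772) and UQCR11 (-0.12), and against ATRA COX6A1 (-0.26), COX6B1 (-0.0666), COX8A (-0.30) and NDUFV3 (-0.0798). Interactions reversed for ATP5MC2 (-0.0264), COX6A1 (-0.30), COX7A2 (-0.23), COX8A (-0.12), NDUFA4 (-0.0121), NDUFB1 (-0.066) and SDHC (-0.14). Without a filter, 8 members were higher against CDK4/6i and 7 interactions were positive, and in the comparison of non-treated cells with CDK4/6i+ATRA the medians minus that of all genes were -0.40, -0.48, -0.40 and -0.43 in complexes I, II, III and V. With NDUFA4 in complex I, that of complex IV was -0.0878.

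Leaving out each library in turn reversed no called value of a named member, and of 2304 cases 50 lost their call and 22 gained one. The uncalled difference of COX6A1 between CDK4/6i+ATRA and ATRA then ran from -0.0174 to 0.104, the latter called and given without the first CDK4/6i+ATRA library. Members lower with CDK4/6i against non-treated cells then numbered 6 to 11, and those lower with CDK4/6i+ATRA 45 to 49.

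No pairing of the libraries by replicate number was seen in the counts, and the labels do not say how the cultures were set up. The deviations of same-numbered libraries from their group means correlated between -0.0702 and 0.0328 over 18 pairs, and 3 of 12 libraries correlated best with their own number. A replicate block left 190 of 192 results the same and took the calls of ATP5MC2 (0.10, adjusted p = 0.051 in edgeR) and NDUFB10 (0.09, adjusted p = 0.054) with CDK4/6i against non-treated cells.

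NDUFA3, NDUFA6 and the tissue isoforms had too few counts to be tested, and ATP5F1E rests on 800 counts. No member other than the untested NDUFA3 had copies with over 10% of its counts, so leaving such members out changed no count.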
